A study of Homo sapiens with 4 samples.

Results

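Filamins, actins and actin crosslinking proteins were examined in cells with reduced STAU1, as 9 genes of the 67008 in the count table: the actins ACTB and ACTG1, the crosslinkers FLNA, ACTN1 and ACTN4, the motor MYH9, and the adhesion adaptors VCL, TLN1 and ZYX. The genes were a list matched from symbol to Ensembl identifier without using their levels. The list itself was chosen with earlier results of these data known. RNA-sequencing covered 4 libraries, 2 from control cells given shLuc, a hairpin that targets luciferase (Ctrl), and 2 from cells given shSTAU1, a hairpin that targets STAU1, a protein that binds double-stranded RNA. Both groups are labelled as wild type (WT), oral cancer cells, and both were infected with virus, for which the study used pLKO vectors. Each arm rests on a single named shRNA, and the labels do not say whether the cells were clones or pools, or whether the replicates were separate cultures, so the p-values measure the spread between these libraries, which may be technical. The growth conditions and the design name SAS, a human tongue squamous carcinoma line, whereas the cell line field reads C3H 10T1/2, a mouse fibroblast line. All 8 squamous epithelial markers examined were expressed, with summed levels of 7222 to 11530 CPM (counts-per-million, counts scaled to a common library total), with each shSTAU1 library above each Ctrl library. The 7 fibroblast markers summed to between 10.1 and 22.6 CPM, lower in both shSTAU1 libraries, and COL3A1, DCN, LUM and THY1 had at most 1 count in any library. Nearly all of that sum came from the other 3, COL1A1, COL1A2 and PDGFRB. The 5 smooth muscle markers summed to 19.6 to 29.02 CPM with MYH11, DES and CNN1 at no more than 1 count. Nearly all of it was ACTA2, at 19.3 to 28.7 CPM, and TAGLN was below 1 CPM. The 4 endothelial and immune markers summed to 3.14 to 13.6 CPM, nearly all from VWF, with PECAM1, PTPRC and CD68 at no more than 1 count. The part of these marker levels in the results was not tested.

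Actin monomers assemble into filaments beneath the membrane and in stress fibers. FLNA (filamin A) joins filaments into networks and ties them to membrane receptors, ACTN1 and ACTN4 (the non-muscle alpha-actinins) bundle them, and MYH9 (the heavy chain of non-muscle myosin IIA) pulls on them. At focal adhesions TLN1 (talin) binds integrin tails, VCL (vinculin) strengthens the link from talin to actin, and ZYX (zyxin) is recruited to filaments under tension. Many of these genes are known targets of SRF, a transcription factor that binds the CArG box and whose cofactors MRTFA and MRTFB are held by actin monomers.

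The actins are near-identical proteins, and their coding starts are shown because that is where the proteins differ. ACTB and ACTG1 each encode 375 residues, of which 4 differ, at positions 2, 3, 4 and 10. Their coding sequences, of 1128 bases each, are 91.2% identical. The first 30 coding bases are given 5′ to 3′ from GENCODE 29 (GRCh38), with the bases at which the 2 genes differ in capitals, 6 in each. The ACTB stretch lies in exon 2 of ENST00000331789.10 (chr7:5529628-5529657, minus strand) and the ACTG1 stretch in exon 1 of ENST00000575842.5 (chr17:81512325-81512354, minus strand).
ACTB: atggaTgaTgaTatcgccgcgctCgtcGtC
ACTG1: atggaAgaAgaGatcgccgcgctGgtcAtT

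Some short windows of the actins were shared with other genes. Of all windows of 50 bases in the chosen transcript, 10.3% for ACTB and 3.58% for ACTG1 also occurred in transcripts of other genes. For FLNA, ACTN1, MYH9, VCL and TLN1 this share was at most 1.0%. Counts assigned to the 33 annotated pseudogenes of ACTB and ACTG1 were few, between 0.0715% and 0.176% of the ACTB counts for the ACTB pseudogenes and between 0.227% and 0.783% of the ACTG1 counts for those of ACTG1. They were lower in both shSTAU1 libraries, opposite to the parent genes.

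The CArG box was searched on both strands in the RefSeq promoters, from 250 bases before to 50 bases after each start (GRCh38.p14). ACTB had no entry and was not searched. Of the 8 genes with an entry, FLNA and ACTG1 held a match, whereas 1.29% of 35116 promoters of that length did. In both genes the box (capitals) began 94 bases before the start. The FLNA window is chrX:154374709-154374738 (minus strand) and the ACTG1 window chr17:81512874-81512903 (minus strand). A match is a description of the letters and not evidence of binding.
FLNA: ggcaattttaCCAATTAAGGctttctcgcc
ACTG1: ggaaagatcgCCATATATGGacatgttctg

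The libraries held 32206655 to 36301574 counts, and 14303 genes passed the filter on low counts. STAU1 was lower in shSTAU1, from 249 and 251 CPM in Ctrl to 41.6 and 41.5 CPM (log2 fold change -2.59, SE 0.13, edgeR adjusted p = 0.00103). Tests were made with edgeR's quasi-likelihood model, which borrows the spread (standard error, SE) from other genes, because 2 libraries against 2 leave 0.333 as the smallest two-sided p of an exact permutation test. In bulk RNA, fewer cells of a kind and less RNA in each cell cannot be told apart.

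Of the 9 genes, 7 passed the filter, and ACTN4 and ZYX did not. ACTN4 (ENSG00000130402, chromosome 19, 38647649 to 38731583, plus strand) was listed at 2 and 0 counts in Ctrl and at 3 and 0 counts in shSTAU1. ZYX (ENSG00000159840, chromosome 7, 143381080 to 143391111, plus strand) was listed at 0 and 1 counts in Ctrl and at 0 counts in both shSTAU1 libraries. No fold change is given for either. These values cannot be read as absent expression. EIF3K, the annotated neighbor of ACTN4 and a subunit of the translation initiation factor eIF3 that cells use generally, was also listed at 0 counts in all 4 libraries, and the branched-actin regulator CTTN (cortactin) had 0 and 4 counts in Ctrl and 1 and 0 counts in shSTAU1. EIF3K and CTTN were picked out after their values were seen. The chosen ZYX transcript shares 0.94% of its windows of 50 bases with other annotated genes and that of ACTN4 17.4%. Why these genes were listed near 0 was not tested.

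ACTG1 was the gene of the list that passed the threshold, with a log2 fold change of 0.86. ACTB followed at 0.40 without passing, and the messages of FLNA, ACTN1, MYH9, VCL and TLN1 had log2 fold changes of 0.09 to 0.21 that were not resolved from the replicate spread. Of the 7 tested genes, 1 was called higher (adjusted p under 0.05 over all 14303 genes) and 0 lower, where 1.13% of all tested genes were called higher and 1.48% lower. At an unadjusted p under 0.05, 2 of the 7 passed, both higher, against 24.5% of all genes in either direction. DESeq2 and limma-voom also called 1 of the 7 each, ACTG1, against 12.2% and 2.54% of the genes with an adjusted p. The median log2 fold change of the 7 was 0.15, and that of all tested genes was 0.01.

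**Figure D1:**
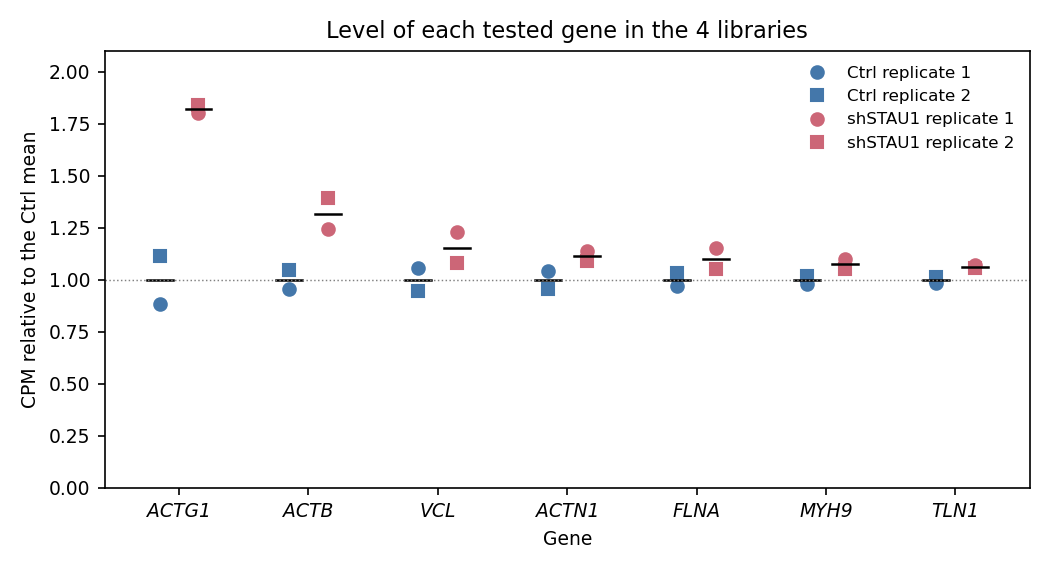
CPM of each tested gene divided by its Ctrl mean (vertical axis, no unit), with blue for Ctrl and red for shSTAU1, circles for replicate 1, squares for replicate 2 and bars for the mean of 2 libraries. ACTG1 stands 1.82-fold and ACTB 1.32-fold above the Ctrl mean, while MYH9 and TLN1 lie at 1.08-fold and 1.06-fold.

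ACTG1 (ENSG00000184009, chromosome 17, 81509971 to 81523847, minus strand), the cytoplasmic gamma actin, had 3256 and 4105 CPM in Ctrl and 6631 and 6766 CPM in shSTAU1. The groups lay far apart, with the lower shSTAU1 library 61.5% above the higher Ctrl library, and the Ctrl libraries differed more between themselves than the shSTAU1 libraries. Mean levels were 3681 ± 601 CPM for Ctrl and 6698 ± 95.5 CPM for shSTAU1 (SD, n = 2 each). ACTG1 rose by a log2 fold change of 0.86 (SE 0.14, edgeR adjusted p = 0.0358). The call was lost without Ctrl replicate 1 (log2 fold change 0.70, adjusted p = 0.49), without Ctrl replicate 2 (1.04, adjusted p = 0.0599) and with no filter on low counts (adjusted p = 0.0988), in the same edgeR test. The adjusted p ran up to 0.49 over the alternatives, and the fold change stayed positive in each of them.

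ACTB (ENSG00000075624, chromosome 7, 5527147 to 5563784, minus strand), the cytoplasmic beta actin and a common internal control in expression assays, had 10287 and 11255 CPM in Ctrl and 13392 and 14994 CPM in shSTAU1. The groups did not overlap, and the lower shSTAU1 library was 19.0% above the higher Ctrl library. The means were 10771 ± 685 CPM and 14193 ± 1133 CPM (SD, n = 2 each). Their log2 fold change was 0.40 (SE 0.12). This did not pass the correction (edgeR unadjusted p = 0.0124, adjusted p = 0.104). It passed without shSTAU1 replicate 1, with a log2 fold change of 0.49 and an edgeR adjusted p of 0.00378.

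Because reads of both actins were scaled alike in each library, their ratio does not depend on scaling. The ratio of ACTG1 to ACTB CPM was 0.317 and 0.365 in Ctrl and 0.495 and 0.451 in shSTAU1. Both shSTAU1 libraries held relatively more ACTG1, with means of 0.341 ± 0.034 and 0.473 ± 0.031 (SD, n = 2 each). The 2 actins together made 13543 and 15360 CPM in Ctrl and 20023 and 21760 CPM in shSTAU1, 1.45-fold more in the mean. FLNA, ACTN1, MYH9, VCL and TLN1 together made 7070 and 7136 CPM in Ctrl and 8011 and 7519 CPM in shSTAU1, 1.09-fold more. Relative to the summed actins, MYH9 was at 0.268 and 0.246 in Ctrl and at 0.204 and 0.179 in shSTAU1. For FLNA this ratio was 0.101 and 0.0952 in Ctrl and 0.0815 and 0.0686 in shSTAU1. Message for the motor and the crosslinker was thus lower per actin message in both shSTAU1 libraries, without overlap. The differences between these ratios were not tested.

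Among the crosslinkers, FLNA (ENSG00000196924, chromosome X, 154348524 to 154374638, minus strand) had 1374 and 1463 CPM in Ctrl and 1631 and 1492 CPM in shSTAU1. The nearest libraries of the groups were 2.00% apart. The log2 fold change was 0.14 (SE 0.12, edgeR adjusted p = 0.513), a difference not resolved from the replicate spread. ACTN1 (ENSG00000072110, chromosome 14, 68874143 to 68979440, minus strand) had 1078 and 989 CPM in Ctrl and 1174 and 1124 CPM in shSTAU1. Its log2 fold change was 0.15 (SE 0.12, edgeR adjusted p = 0.464). ACTN1 and ACTN4 proteins are 82.5% identical, and a shift between these paralogs could not be examined, as ACTN4 was listed near 0.

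The motor MYH9 (ENSG00000100345, chromosome 22, 36281277 to 36388067, minus strand) had 3634 and 3774 CPM in Ctrl and 4079 and 3886 CPM in shSTAU1. It lay 2.97% above the higher Ctrl library in the lower shSTAU1 library. The log2 fold change was 0.10 (SE 0.11, edgeR adjusted p = 0.608).

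Of the adhesion adaptors, VCL (ENSG00000035403, chromosome 10, 73995193 to 74121363, plus strand) had 759 and 680 CPM in Ctrl and 883 and 777 CPM in shSTAU1. Replicate 1 was the higher library in each group, and the groups were 2.32% apart at their nearest. Its log2 fold change was 0.21 (SE 0.13, edgeR adjusted p = 0.366). TLN1 (ENSG00000137076, chromosome 9, 35696948 to 35732395, minus strand) had 224 and 231 CPM in Ctrl and 244 and 240.0 CPM in shSTAU1. Its log2 fold change was the smallest of the 7, at 0.09 (SE 0.12, edgeR adjusted p = 0.689). TLN1 also had the lowest count of the 7 genes, 7543 in Ctrl replicate 1, for which counting error alone is 1.15%. Talin and vinculin messages kept a similar proportion, with VCL at 3.38 and 2.94 times the TLN1 CPM in Ctrl and at 3.63 and 3.23 times in shSTAU1, with overlap between the groups.

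In all 7 tested genes both shSTAU1 libraries lay above both Ctrl libraries, as in 28.5% of all tested genes. This separation depended on the scaling. It held in 7 of the 7 with DESeq2's size factors, for which the share over all genes was not computed. With library size in place of TMM it held in 2 of the 7, ACTB and ACTG1, against 25.0% of all tested genes, and in FLNA, ACTN1, MYH9, VCL and TLN1 the groups then overlapped. The log2 fold changes under that scaling ran from 0.03 for TLN1 to 0.81 for ACTG1.

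**Figure D2:**
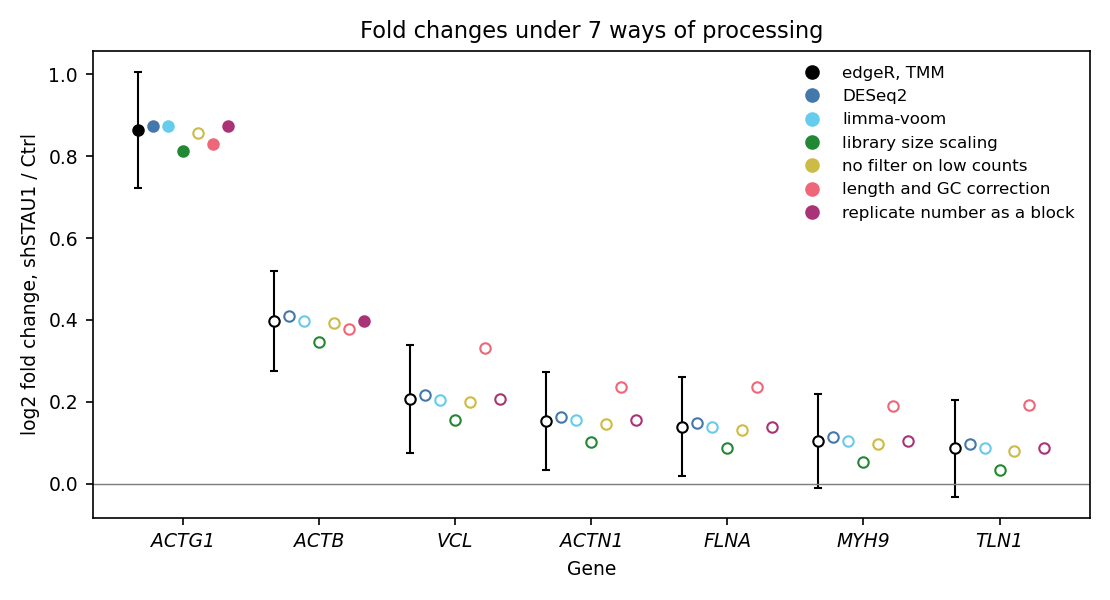
Log2 fold change of shSTAU1 over Ctrl (vertical axis) for the 7 tested genes under 7 ways of processing, filled where the adjusted p was under 0.05, with the standard error for the edgeR fit. All points lie above 0, ACTG1 from 0.81 to 0.87, and library size scaling gives the lowest value of every gene.

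Per length, the order of levels was the same in both groups. In Ctrl, CPM per kilobase of transcript was 5607 ± 357 for ACTB, 1631 ± 266 for ACTG1 and 490.3 ± 13.1 for MYH9 (SD, n = 2). It was 298 ± 18.3 for ACTN1, 167 ± 7.33 for FLNA, 131 ± 10.2 for VCL and 25.8 ± 0.55 for TLN1. No neighbors in this order overlapped between their libraries in either group. FLNA and VCL exchanged places per kilobase of coding sequence, at 179 ± 7.86 and 211 ± 16.5 CPM per kilobase in Ctrl. The libraries came from a kit that captures exons, so the capture of each gene also enters these levels, by an amount not examined here.

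The actin transcripts were also the shortest of the 7, at 1921 bases for ACTB and 2256 bases for ACTG1, while those of the other 5 ran from 3464 bases (ACTN1) to 8823 bases (TLN1). After each library's trend with transcript length and GC content was removed, the log2 fold changes were 0.83 for ACTG1 (adjusted p = 0.0457 from edgeR's test) and 0.38 for ACTB (adjusted p = 0.143), and those of the other 5 ran from 0.19 to 0.33 with none past the threshold. Across the 126 tested members and related genes, Spearman's rho between the length of the longest transcript and the log2 fold change was -0.306, and it was -0.112 across 14159 tested genes. These are descriptions across genes that share the same 4 libraries, and genes are not independent replicates.

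**Figure D3:**
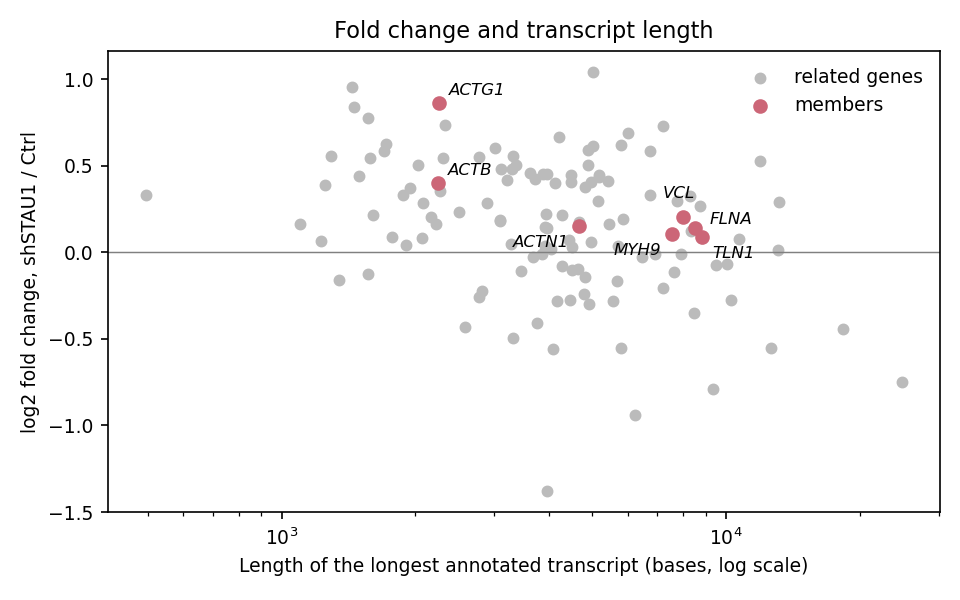
Log2 fold change of shSTAU1 over Ctrl (vertical axis) against the length of the longest annotated transcript in bases (log scale), with the 7 tested members in red and the related genes in grey. The 63 genes of up to the median length have a median log2 fold change of 0.29, and the 63 longer genes one of 0.09.

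The wider actin machinery was described with 128 related genes in 7 lists, of which 119 were tested. Of these, MYL6 was called higher and PDLIM5 lower, and 82 of the 119 had a log2 fold change above 0, against 50.4% of all tested genes. Their median log2 fold change was 0.18. At an unadjusted p under 0.05, 40 of the 119 were higher and 8 lower, where 12.9% of all tested genes were higher and 11.6% lower. DESeq2 called 24 higher and 5 lower of the 116 it gave an adjusted p, where 6.86% of all such genes were called higher and 5.37% lower.

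Monomer-binding and turnover proteins, which keep actin monomers available and recycle filaments, had the highest median, 0.43, with 20 of 23 genes above 0. None of the 23 passed edgeR's or limma-voom's adjusted threshold. At an unadjusted p under 0.05, 15 were higher (12.9% over all genes) and 0 lower (11.6%), and DESeq2 called 9 higher (6.86%) and 0 lower (5.37%). PFN1 (profilin 1, which charges actin monomers with ATP) had 204 and 212 CPM in Ctrl and 281 and 331 CPM in shSTAU1, a log2 fold change of 0.56 (SE 0.13, edgeR adjusted p = 0.0665). Its paralog PFN2 had 25.8 and 20.5 CPM in Ctrl and 41.7 and 35.3 CPM in shSTAU1 (log2 fold change 0.74, edgeR adjusted p = 0.0695). DESeq2 called both (adjusted p = 0.012 for PFN1 and 0.0084 for PFN2). Neither pair of groups overlapped, but both genes were named for the smallest p of their list, which favors separated groups. Of all tested genes, 28.5% had both shSTAU1 libraries above both Ctrl libraries.

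In the list of myosin II partners and tropomyosins, 1 of 17 genes was called, and 12 had a log2 fold change above 0, with a median of 0.30. MYL6, the essential light chain that binds the MYH9 heavy chain, had 53.5 and 61.2 CPM in Ctrl and 94.4 and 102 CPM in shSTAU1. It rose by a log2 fold change of 0.78 (SE 0.14, edgeR adjusted p = 0.0368), a call lost without Ctrl replicate 1 (0.68, adjusted p = 0.49), without Ctrl replicate 2 (0.88, adjusted p = 0.149) and with no filter (0.77, adjusted p = 0.102), at log2 fold changes of similar size. MYH9 and MYL6 thus differed in size of change, 0.10 against 0.78, a difference that was not tested. MYL6 was named because it was called. The other light chain genes of the list were not called by edgeR, with log2 fold changes of 0.39 for MYL12B, 0.07 for MYL12A and -0.22 for MYL9. Of the 17, 8 were higher and 0 lower at an unadjusted p under 0.05, beside 12.9% and 11.6% of all genes.

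Focal adhesion plaque genes had a median log2 fold change of 0.22 over 32 tested genes, of which 22 lay above 0. PDLIM5, a PDZ and LIM domain protein that associates with alpha-actinin, had 72.9 and 64.1 CPM in Ctrl and 33.3 and 38.2 CPM in shSTAU1. It fell by 0.94 on the log2 scale (SE 0.15, edgeR adjusted p = 0.0357), and the call was lost without Ctrl replicate 1 (-0.85, adjusted p = 0.49), without Ctrl replicate 2 (-1.02, adjusted p = 0.0979) and with no filter (-0.94, adjusted p = 0.0989), again at log2 fold changes of similar size. The list had 8 of 32 genes higher and 3 lower at an unadjusted p under 0.05, beside 12.9% and 11.6% of all genes, so the share of lower genes was near that of the table. DESeq2 called 5 higher and 2 lower, beside 6.86% and 5.37%.

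Other crosslinkers and bundlers were mixed, with 13 of 20 tested genes above 0, a median of 0.13 and no call by edgeR or limma-voom. With 3 of 20 higher and 4 lower at an unadjusted p under 0.05, beside 12.9% and 11.6% of all genes, and with 1 higher and 2 lower by DESeq2, beside 6.86% and 5.37%, the list lay near the table as a whole. MACF1, a large protein that links actin to microtubules, had 2482 and 2082 CPM in Ctrl and 1557 and 1156 CPM in shSTAU1. Its log2 fold change was -0.75 (edgeR adjusted p = 0.0631), and -0.47 after the length and GC correction (edgeR adjusted p = 0.143). FSCN1 (fascin, the bundler of filopodia) had 98.5 and 109 CPM in Ctrl and 147 and 157 CPM in shSTAU1 (log2 fold change 0.55, edgeR adjusted p = 0.0654). Both missed edgeR's adjusted threshold and were called by DESeq2 (adjusted p = 0.0017 for MACF1 and 0.012 for FSCN1). Neither gene overlapped between groups, but both were named for the smallest p of their list, which favors separated groups. Of all tested genes, 28.5% had both shSTAU1 libraries above both Ctrl libraries and 28.0% below.

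Filament nucleation genes had 12 of 20 above 0 and a median of 0.12, again with no call by edgeR or limma-voom. Of the 20, 5 were higher and 1 lower at an unadjusted p under 0.05, beside 12.9% and 11.6% of all genes. DESeq2 called 3 higher and 1 lower, beside 6.86% and 5.37%. DIAPH2, a formin that elongates unbranched filaments, had 50.1 and 47.4 CPM in Ctrl and 31.5 and 24.9 CPM in shSTAU1 (log2 fold change -0.79, edgeR adjusted p = 0.0539). With library size in place of TMM its adjusted p was 0.0489 in the same edgeR test. ARPC5, a subunit of the Arp2/3 complex that makes branches, had 503 and 404 counts in Ctrl and 764 and 826 counts in shSTAU1 (log2 fold change 0.73, edgeR adjusted p = 0.0723). DESeq2 called both genes (adjusted p = 0.0024 for DIAPH2 and 0.016 for ARPC5). The subunits ARPC1A, ARPC1B and ARPC4 passed the filter at only 18 to 114 counts per library, while ARPC2 and ARPC3 had 161 to 357 CPM. These low rows enter the shares and median of the list, and why they were low was not tested.

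SRF itself had 29.6 and 33.7 CPM in Ctrl and 48.6 and 51.9 CPM in shSTAU1, a log2 fold change of 0.66 (SE 0.15, edgeR adjusted p = 0.0599). DESeq2 called it (adjusted p = 0.00787). Its cofactor MRTFB had 35.9 and 35.0 CPM in Ctrl and 36.9 and 38.1 CPM in shSTAU1 (log2 fold change 0.08, edgeR adjusted p = 0.758). Of the 3 genes in this list, SRF, MRTFA and MRTFB, none passed edgeR's or limma-voom's adjusted threshold, and SRF alone had an unadjusted p under 0.05.

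Other actins were far lower than ACTB and ACTG1. Of 9 genes, 4 were tested and 0 were called or had an unadjusted p under 0.05 by edgeR, and DESeq2 and limma-voom called 0. ACTA2 was the highest, with 28.7 and 20.9 CPM in Ctrl and 25.2 and 19.3 CPM in shSTAU1. POTEF had 12.8 and 9.71 CPM in Ctrl and 13.8 and 8.63 CPM in shSTAU1. Both overlapped between groups. The muscle actin ACTA1 was counted 17 times in either Ctrl library and 23 and 26 times in shSTAU1. POTEE, which encodes a fusion of a POTE ankyrin part with actin, had 9.13 and 5.89 CPM in Ctrl and 7.27 and 5.09 CPM in shSTAU1, with overlapping groups. Its log2 fold change of -0.28 (adjusted p = 0.602 from edgeR's test) turned to 0.06 without Ctrl replicate 1. In all related genes together both shSTAU1 libraries lay above both Ctrl libraries in 59 genes and below in 18, beside 28.5% and 28.0% of all tested genes.

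**Figure D4:**
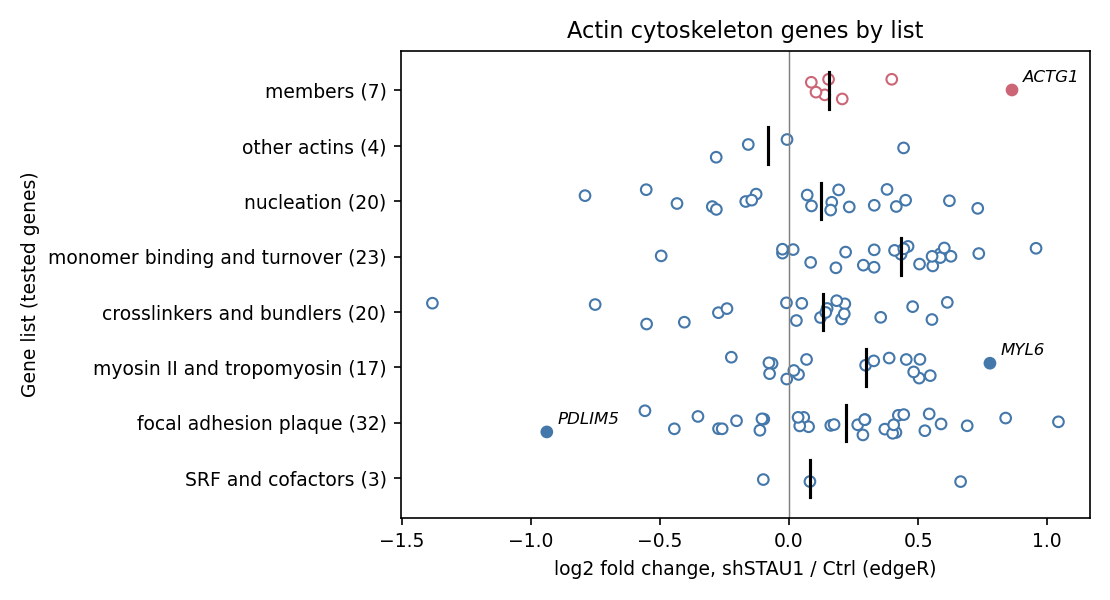
Log2 fold change of shSTAU1 over Ctrl (horizontal axis, edgeR) of the 7 tested members (red) and of 119 related genes (blue) by list, with a black bar for the median and filled points for an adjusted p under 0.05. The filled points are ACTG1, MYL6 and PDLIM5, and the medians run from -0.08 for other actins to 0.43 for monomer binding and turnover.

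The mean profile of the 7 genes, as log2 CPM centered over the 4 libraries, was -0.17 and -0.11 in Ctrl and 0.16 and 0.12 in shSTAU1. Among 7769 other genes of at least 10 CPM, those nearest to it were TMEM230, HINFP, ASCC1, ZCCHC14 and SNRPA, with root mean square distances of 0.00364 to 0.0167 on the log2 scale over 4 libraries. Their log2 fold changes ran from 0.27 to 0.30, which follows from choosing genes near this mean, and none passed edgeR's adjusted threshold. ACTG1 (0.86) and ACTB (0.40) raised the mean, while the other tested members had log2 fold changes of 0.09 to 0.21.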

How the data were processed

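Gene-level RNA-sequencing read counts of 4 libraries were deposited by the authors as whole numbers without normalization, from RNA prepared with an exome capture kit. The submitters' processing notes name Partek and hg38. The aligner, counter, strand setting and annotation release are not given in the sources used here. Identifiers were matched without version, and 58516 are in GENCODE 29 (GRCh38), with 99.9% of the counts. No sample column was left unmapped.

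The tests used edgeR 4.0.16 under R 4.3.3 (filterByExpr, TMM, quasi-likelihood test, Benjamini-Hochberg adjustment over 14303 genes, threshold 0.05), with Python 3.11.15 for summaries. CPM uses the TMM-scaled library size. The common biological coefficient of variation was 19.1%. Replicates of a group differed by more than sampling noise, with chi-square over its degrees of freedom at 23.4 in Ctrl and 56.4 in shSTAU1. Standard errors were taken from the fold change and its F statistic.

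Alternatives were DESeq2 1.42.0, limma-voom (limma 3.58.1), library size scaling, no filter, the replicate number as a block, offsets from splines (4 degrees of freedom) of transcript length and GC content (99.0% of tested genes), an unadjusted p under 0.05 with a fold of 1.5, and leaving out each library. Models were also run on simulated counts with the same spread for all genes and unpaired libraries. That checks the code and cannot speak to the replicate spread or the replicate block in these data. The scaling of the separation counts was added after seeing the data. The members and lists were chosen with earlier results of these data known. Genes named by rule are the 9 members, STAU1, in each related list up to 4 genes past the threshold or else the 2 with the smallest p, and the 5 nearest profiles. Other genes are named for their levels or as members of a list. Transcripts were chosen by APPRIS, CCDS, support level and length. Counting errors cover counting only.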

Additional observations from a re-analysis of the deposited data

How the results depend on the processing

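The log2 fold change of every tested member stayed positive under every alternative fitted. Over all genes, 372 were called, and DESeq2 gave 1446, no filter 11, an unadjusted p under 0.05 with a fold of 1.5 gave 2098, and fits without 1 library 0 to 2780. The 0 came without Ctrl replicate 1 in edgeR, where 1502 genes had an unadjusted p under 0.05. Of the members, 1 was called, against 0 with no filter and 0 to 2 without 1 library. Of the related genes, 2 were called, against 29 with DESeq2, 0 with no filter, 19 by the criterion of p and fold, and 0 to 37 without 1 library. In such fits the lone library was assumed to vary like the other group. The members' median of 0.15 was 0.10 with library size, 0.24 with the length and GC correction and 0.12 to 0.21 without 1 library, while the median of all genes moved from 0.01 to -0.05 with library size and to 0.06 with the correction. Separation of both groups held in 2 of 7 members with library size and in 7 of 7 with DESeq2's size factors. STAU1 ran from -2.60 to -2.58 without 1 library, and its adjusted p was 0.49 without Ctrl replicate 1. POTEE ran from -0.559 to 0.0623, turning positive without Ctrl replicate 1. The causes were not tested.

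The groups share replicate numbers, which the labels do not tie to a batch, and same-numbered deviations correlated at 0.27 over tested genes and at 0.59 over the 4791 with a log2 CPM above 5, where the tested members lie. With the replicate block 4087 genes, 2 members (ACTG1, and ACTB at an edgeR adjusted p of 0.000755) and 56 related genes were called, and when length and GC were corrected too, 3810, 3 (VCL added) and 50, at a member median of 0.24.

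For the genes named by rule, other than STAU1, the alternatives gave 264 values. Of these, 211 stayed on the same side of the threshold, 9 lost the call, 43 gained it and 1 changed sign. For ACTN4 and ZYX the counts allow no fold change.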
